A study of Mus musculus with 23 samples.

Results

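The MYC network and its early targets were followed through 6 genes: Myc itself, its partner Max, the MAX-binding repressors Mxi1 and Mxd4, and the target genes Odc1 and Ncl. Every probe set whose platform annotation gave 1 of these symbols alone was taken, which left 1 probe set per gene, 6 of the 12422 probe sets tested. The cells were primary mouse embryonic fibroblasts (age e14.5) with the genotype C57/BLACK6, ATF1 -/+, which all groups share. After 48 hours in 1% dialyzed serum, cultures received 200 µM 4-thiouridine and tritiated cytidine for 2 hours, either in 10% serum (serum treated) or in 1% serum (serum starved). 4-thiouridine enters RNA as it is made, and an organomercurial matrix that binds it separated the newly transcribed RNA. The 6 groups were newly transcribed RNA of serum treated and serum starved cells (4 arrays each), total RNA of serum treated and serum starved cells (4 each), and amplified total RNA of serum treated (4 arrays) and serum starved cells (3 arrays). No wild-type Atf1 cells were among them, and the titles alone call the arrays biological replicates, so p-values measure the spread between these arrays.

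MYC is a basic helix-loop-helix leucine zipper transcription factor that binds DNA as a dimer with MAX, at the E-box with the letters CACGTG. MAX also pairs with MXI1 and the MXD proteins, and those dimers recruit SIN3 repressor complexes to the same sites. In fibroblasts Myc belongs to the genes that serum switches on early, its mRNA is short-lived, and its classic targets include ornithine decarboxylase (Odc1) and nucleolin (Ncl).

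The promoters show which members carry the letters that MYC-MAX dimers bind within a short window around their own start site. Sequences of the 280 bases from 250 before to 30 after the annotated start came from RefSeq (GRCm38.p6) for the 5 members that were matched to it here, and the promoter of Myc was not used here. Odc1 is shown as the target gene that rose, and Max and Mxd4 as the network genes whose window holds the E-box, in capitals.

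Odc1, chr12:17544623-17544902, plus strand: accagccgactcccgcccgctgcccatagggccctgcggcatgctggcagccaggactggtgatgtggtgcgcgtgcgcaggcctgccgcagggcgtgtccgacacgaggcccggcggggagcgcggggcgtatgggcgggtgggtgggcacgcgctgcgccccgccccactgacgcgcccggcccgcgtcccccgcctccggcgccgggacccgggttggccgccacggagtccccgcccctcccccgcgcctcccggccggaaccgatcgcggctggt

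Max, chr12:76962219-76962498, minus strand: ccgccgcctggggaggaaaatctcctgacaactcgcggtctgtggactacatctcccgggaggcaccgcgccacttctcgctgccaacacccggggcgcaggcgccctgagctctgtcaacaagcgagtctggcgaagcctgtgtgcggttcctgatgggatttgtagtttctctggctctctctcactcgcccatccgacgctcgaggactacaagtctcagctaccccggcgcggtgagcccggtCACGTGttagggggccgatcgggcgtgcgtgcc

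Mxd4, chr5:34187681-34187960, minus strand: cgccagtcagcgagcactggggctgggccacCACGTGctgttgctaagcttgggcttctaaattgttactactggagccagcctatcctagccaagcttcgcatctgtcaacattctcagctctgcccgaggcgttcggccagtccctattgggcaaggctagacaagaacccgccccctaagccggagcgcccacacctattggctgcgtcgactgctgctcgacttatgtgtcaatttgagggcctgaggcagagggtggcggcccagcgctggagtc

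The E-box of Max began at base -3 and that of Mxd4 at base -219 relative to the start. CACGTG reads the same on both strands, and 6.79% of 32851 RefSeq promoter windows of this length held it. The Odc1 window held 4 GC boxes (GGGCGG on either strand, present in 34.7% of the windows) and no CACGTG. Ncl (chr1:86359426-86359705, minus strand) held 3 GC boxes and 1 cyclic AMP response half-site (TGACGT on either strand, present in 7.26% of the windows) at base -97. None of the 3 annotated starts of Mxi1 held CACGTG or TGACGT. These matches describe letters in the windows and say nothing of binding. Sequence farther upstream or downstream was not searched, so a gene without CACGTG in its window, such as Odc1, may hold it nearby.

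Signals are 1 intensity per probe set and array. Median signals as deposited ran from 7.3 to 75.2 over the 23 arrays, so arrays were quantile normalized, and differences were taken on log2(intensity + 16), which understates changes of dim probe sets. Along the Gapdh control transcript, the 3' minus 5' signal (log2, mean ± SD) was 2.16 ± 0.65 on the 8 newly transcribed arrays, 1.55 ± 0.60 on the 7 amplified arrays and -0.20 ± 0.11 on the 8 total RNA arrays. Along Actb it was 2.37 ± 0.55, 2.27 ± 0.44 and 0.35 ± 0.17 on the same arrays, so newly transcribed and amplified arrays lay closer there. Clustering by whole profile placed newly transcribed arrays 1 and 4 of both serum conditions in 1 cluster and arrays 2 and 3 of both in another. Of 10 fibroblast markers 9 were measured, and their summed intensity was 6659 to 12040 in newly transcribed RNA with 10% serum and 7531 to 12581 with 1% serum, against 16001 to 25206 over the total and amplified arrays. The macrophage list held 9 symbols, of which Adgre1 and Emr1 name 1 gene, and 8 symbols were measured. Their sums were 2186 to 6118 and 1018 to 4083 on the same newly transcribed arrays (10% and 1% serum). They were 2537 to 5765 and 2584 to 5334 in total RNA, and 2278 to 6766 and 2019 to 6112 in amplified RNA. No marker was at 0, the ranges of the serum groups overlapped, and their part in the results was not tested. In bulk RNA, fewer cells of a type and less RNA per cell cannot be told apart.

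**Figure D1:**
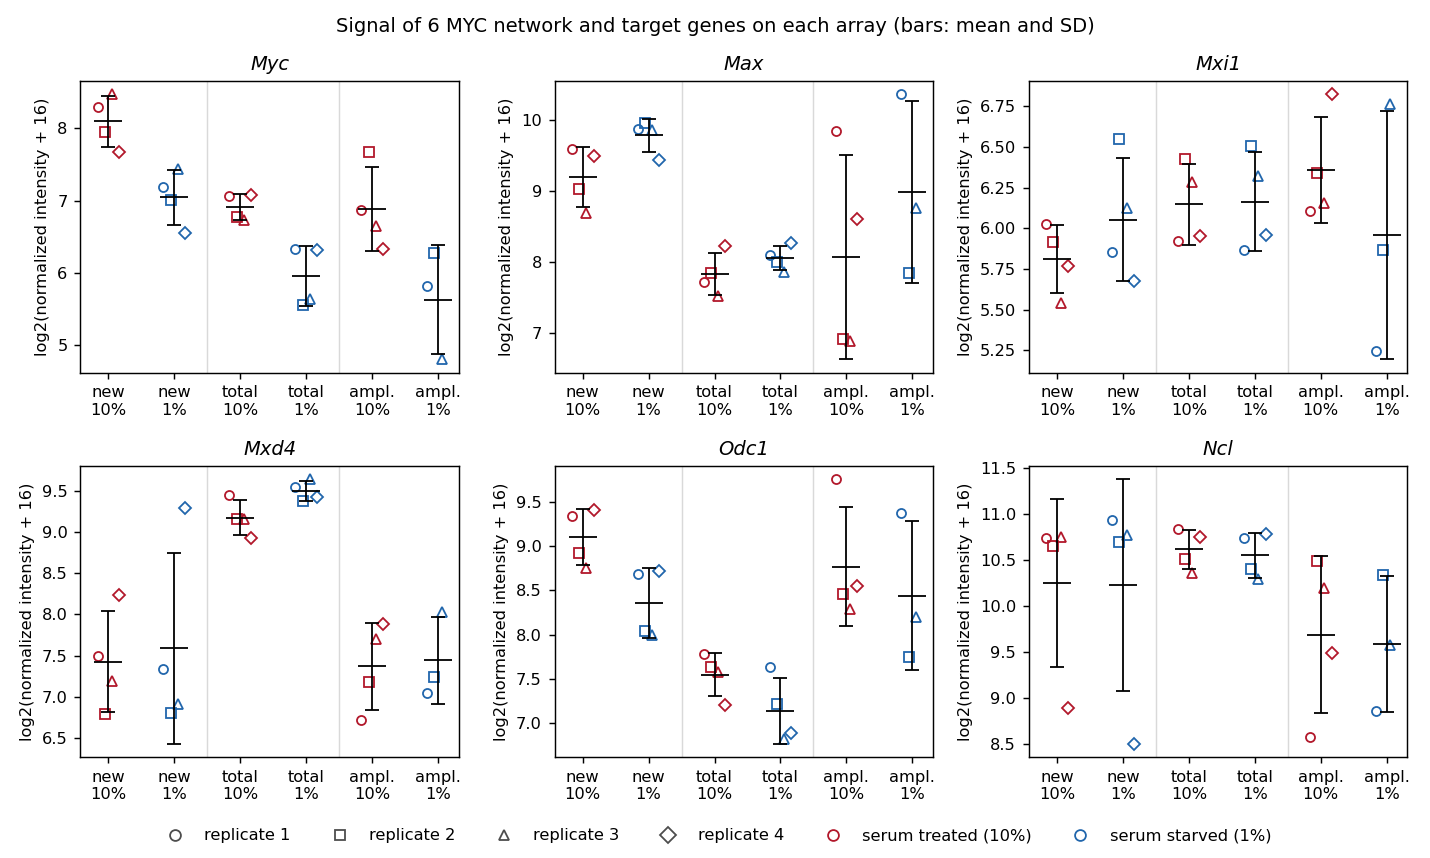
Normalized signal, log2(intensity + 16), of the 6 genes on all 23 arrays, with serum treated (10%, red) left of serum starved (1%, blue) for each kind of RNA; symbols are replicate numbers and bars are mean and SD. Myc with 10% serum lies above Myc with 1% serum in all 3 kinds of RNA, Odc1 in newly transcribed RNA alone, and Ncl has 1 low array, number 4, in both newly transcribed groups.

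Myc, whose product drives growth genes in dividing cells, had about 2-fold higher signal with serum in RNA made during the 2 hours and in total RNA. Its probe set 104712_at had normalized intensities of 297, 232, 338 and 188 in newly transcribed RNA of serum treated cells, against 129.7, 112, 157 and 77.7 in that of starved cells. Every treated array was above every starved array. In total RNA the values were 118, 93.7, 90.6 and 119 with 10% serum, against 64.3, 30.9, 33.8 and 63.7 with 1% serum, again without overlap. Amplified total RNA gave 102, 189, 84.4 and 64.2 with 10% serum, against 40.3, 61.5 and 12.01 with 1% serum, and those groups did not overlap either. With arrays paired by replicate number, Myc rose by 1.05 ± 0.11 (log2, SE, n = 4 pairs), or 2.07-fold, in newly transcribed RNA, with limma's adjusted p = 0.026. In total RNA it rose by 0.95 ± 0.12, or 1.94-fold, with adjusted p = 0.047. Both folds are ratios of intensity + 16, which understate the change in intensity itself. Mean Myc intensities with 10% and 1% serum were 264 and 119 in newly transcribed RNA, and 105 and 48.2 in total RNA. Without the pairs the same log2 differences had adjusted p = 0.46 in newly transcribed RNA (SE 0.24). In total RNA the adjusted p without pairs was 0.34 (SE 0.21). In amplified total RNA, whose numbers did not pair, the difference was 1.25 ± 0.44 and the adjusted p was 1.00.

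The Myc difference was of like size in every pair of newly transcribed RNA, and its calls there and in total RNA depended on having all 4 pairs. The differences within pairs 1 to 4 were 1.10, 0.95, 1.03 and 1.12 in newly transcribed RNA, so both array clusters held values near the mean. In total RNA they ranged more widely, at 0.74, 1.23, 1.10 and 0.76. With 1 pair left out, whichever it was, the paired call was lost: the difference was 1.03 to 1.09 with adjusted p = 0.062 to 0.17 in newly transcribed RNA, and 0.86 to 1.03 with adjusted p = 0.11 to 0.29 in total RNA. It was also lost with values as deposited (adjusted p = 0.28 in newly transcribed RNA, 0.53 in total RNA) and with a pseudocount of 1 (adjusted p = 0.11 and 0.21), and it held with arrays scaled to 1 median (0.032 and 0.040). With values as deposited the Myc difference was 0.56 in newly transcribed RNA and 1.13 in total RNA, while the median of all probe sets moved to -0.18 and 0.21.

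Odc1, the enzyme that makes putrescine and sets the pace of polyamine synthesis, also had a higher signal with serum, most clearly in newly transcribed RNA. Its probe set 160084_at gave 629, 467, 414 and 663 in newly transcribed RNA of treated cells, against 395, 248, 239.6 and 404 in that of starved cells. The groups did not overlap, with the lowest treated array just above the highest starved one. In total RNA the intensities were 203, 184, 175 and 132 with 10% serum, against 183, 133, 96.9 and 103 with 1% serum, which overlap. Amplified total RNA gave 849.8, 336, 298 and 359 with 10% serum, against 646, 198 and 278 with 1% serum, also overlapping. With the pairs Odc1 rose by 0.74 ± 0.11, or 1.67-fold in intensity + 16, in newly transcribed RNA (limma, adjusted p = 0.040). Without the pairs the adjusted p was 0.65 (SE 0.24). The 4 pairs gave 0.65, 0.87, 0.75 and 0.69. In total RNA the difference was 0.41 ± 0.12 with the pairs (adjusted p = 0.34), with pairs at 0.14, 0.42, 0.76 and 0.32, and in amplified RNA 0.33 ± 0.50 without them (adjusted p = 1.00). The call in newly transcribed RNA was lost without any 1 pair (0.70 to 0.77, adjusted p = 0.065 to 0.21), with values as deposited (0.30, adjusted p = 0.62), with a pseudocount of 1 (adjusted p = 0.18) and with arrays scaled to 1 median (adjusted p = 0.055). With the array cluster in place of the replicate number as the block it was adjusted p = 0.045 for Odc1 and adjusted p = 0.12 for Myc.

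Ncl, an abundant nucleolar protein that binds ribosomal RNA precursors, showed no serum difference past the threshold. Its probe set 100144_at had 1690.4, 1592, 1703 and 458 in newly transcribed RNA with 10% serum, against 1951, 1644, 1736 and 347 with 1% serum. Array 4 was far below the others in both groups, and without pair 4 the paired difference was -0.09, against 0.03 ± 0.13 with all 4 (95% interval -0.30 to 0.35, limma adjusted p = 0.94). Total RNA ran from 1302.5 to 1817 with 10% serum and from 1237 to 1742 with 1% serum, a paired difference of 0.06 ± 0.09 (-0.15 to 0.28, adjusted p = 0.88). Amplified total RNA ran from 367 to 1422 with 10% serum and from 447 to 1279 with 1% serum, a difference of 0.10 ± 0.54 without pairs, for which the spread between arrays allowed -1.18 to 1.38. With pairs, the Ncl intervals in newly transcribed and total RNA lie wholly below the Myc and Odc1 values in newly transcribed RNA. Without pairs the interval in newly transcribed RNA was -1.48 to 1.53, which covers both values, and that in total RNA -0.30 to 0.43.

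Max, the partner through which MYC binds DNA, had lower mean signals with serum in all 3 kinds of RNA, none past the threshold. Its probe set 99095_at had 756, 508, 396 and 706 in newly transcribed RNA with 10% serum, against 923, 977, 919 and 681 with 1% serum. The groups overlapped through starved array 4, the lowest of its group. The difference was -0.58 ± 0.22 with pairs (limma, adjusted p = 0.19), with -0.28 and 0.05 in pairs 1 and 4 of the first array cluster and -0.92 and -1.18 in pairs 2 and 3 of the second. In total RNA the intensities were 195, 215, 168 and 283 with 10% serum, against 259, 240.5, 217 and 294 with 1% serum. All 4 pairs were negative there, with a difference of -0.23 ± 0.10 (adjusted p = 0.49). In amplified RNA Max spread over 909, 106, 103 and 375 with 10% serum, against 1304, 214 and 418 with 1% serum, and the difference of -0.92 ± 0.90 (adjusted p = 1.00) became -0.23 without starved array 1.

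The MAX-binding repressors, which oppose MYC at shared sites, gave no call in either direction. Mxd4, high in resting and differentiating cells, had 679, 556, 554 and 469.9 in total RNA with 10% serum, against 728, 647, 783 and 672 with 1% serum (probe set 99024_at). The groups overlapped through treated array 1, all 4 pairs were negative (-0.10, -0.21, -0.49 and -0.50), and the paired difference was -0.32 ± 0.11 (limma, adjusted p = 0.39). In newly transcribed RNA Mxd4 had 165, 94.9, 129.9 and 284 with 10% serum, against 145, 96.0, 105 and 609 with 1% serum. The difference of -0.16 ± 0.23 there (adjusted p = 0.76) was 0.14 without pair 4, whose starved array was high. Mxi1 (160138_at) was dim throughout, at 30.6 to 49.2 with 10% serum and 35.2 to 77.8 with 1% serum in newly transcribed RNA and at 44.6 to 70.0 and 42.4 to 75.1 in total RNA. Its paired differences were -0.24 ± 0.18 (adjusted p = 0.50) and -0.02 ± 0.09 (adjusted p = 0.98). In amplified RNA the differences without pairs were 0.40 ± 0.38 for Mxi1 and -0.07 ± 0.37 for Mxd4, both with adjusted p = 1.00. With values as deposited, where the median of all probe sets moved by 0.21 in total RNA, the total RNA differences of Max, Mxi1 and Mxd4 had the opposite sign, at 0.19, 0.27 and 0.13.

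**Figure D2:**
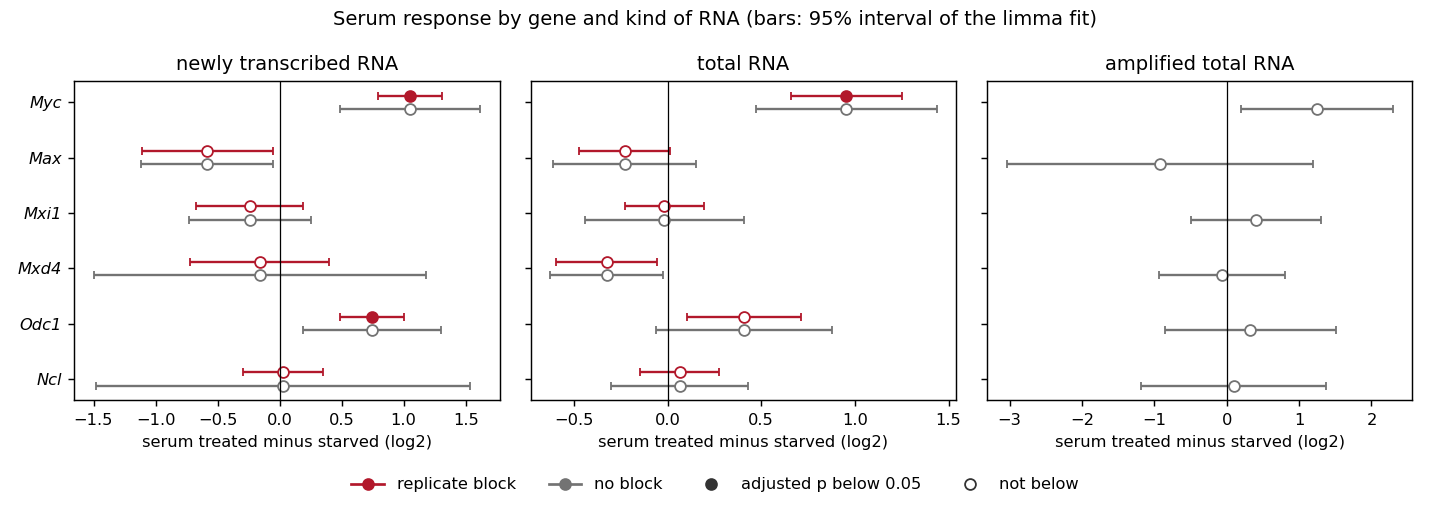
Serum treated minus serum starved signal (log2) for the 6 genes in each kind of RNA, as the limma estimate with its unadjusted 95% interval; red fits pair arrays by replicate number, grey fits do not, and filled points have an adjusted p below 0.05. The filled points are Myc at 1.05 and Odc1 at 0.74 in newly transcribed RNA and Myc at 0.95 in total RNA.

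Counted over the members, 2 of 6 rose and 0 fell in newly transcribed RNA with the pairs, where limma called 0.91% of all 12422 probe sets higher and 0.829% lower. In total RNA 1 of 6 rose, against 0.459% of all probe sets called higher with pairs. Without pairs, which was the main fit, 0 of 6 were called in any kind of RNA. In newly transcribed RNA that fit called 0 of all probe sets, with 800 at an unadjusted p below 0.05. In total RNA it called 0.121%, and in amplified RNA 0, with 175 unadjusted. Treated arrays lay above all starved arrays for 2 of 6 members in newly transcribed RNA (Myc and Odc1; 2.13% of all probe sets), for Myc in total RNA (1.52%) and for Myc in amplified RNA (1.26%). All 4 pairs were positive for Myc and Odc1 in newly transcribed RNA (13.7% of all probe sets) and in total RNA (8.67%), and negative for Max and Mxd4 in total RNA (10.5%). The member median was -0.07 in newly transcribed RNA, against 0.01 over all probe sets. The members were chosen with earlier results of these data known, so these counts describe them and do not test enrichment.

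**Figure D3:**
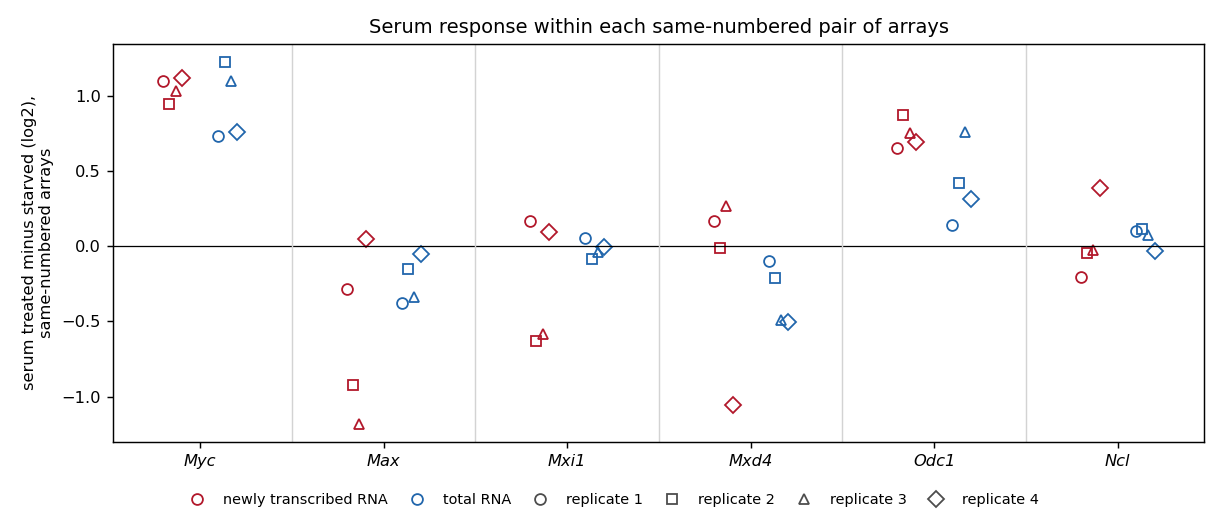
Difference between serum treated and serum starved signal (log2) within each same-numbered pair of arrays, in newly transcribed (red) and total RNA (blue), for the 6 genes. Myc and Odc1 lie above 0 in all 8 pairs of the plot, Max in total RNA below 0 in all 4, and Ncl within -0.20 to 0.38.

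The design also asks whether a response differs between RNA just made and the RNA pool. For Myc the response in newly transcribed minus that in total RNA was 0.10 ± 0.33 (limma, adjusted p = 1.00), with a 95% interval of -0.62 to 0.81 without pairs and -0.26 to 0.45 with them. Its sign depended on the processing: 6 of 28 alternatives gave the opposite sign, and the values ran from -0.57 to 0.24. Odc1 had 0.33 ± 0.33 (adjusted p = 1.00; -0.37 to 1.03), or -0.03 to 0.70 with pairs. Max had -0.35 ± 0.29 (-0.98 to 0.27) and the other members lay between -0.22 and 0.17. Against amplified total RNA the difference was -0.20 ± 0.51 for Myc and 0.41 ± 0.56 for Odc1, and the others lay between -0.64 and 0.34. Limma called 0 members and 0 of all probe sets in both comparisons, with 299 and 201 at an unadjusted p below 0.05, and these 2 comparisons share the newly transcribed arrays. The Odc1 response, past the threshold in newly transcribed and short of it in total RNA, was therefore not shown to differ between them.

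Relative to amplified total RNA, Myc stood higher in newly transcribed RNA. In serum treated cells it averaged 8.09 ± 0.36 in newly transcribed and 6.88 ± 0.58 in amplified RNA (log2, SD, n = 4 each), a difference of 1.21 ± 0.26 with pairs (limma, adjusted p = 0.025) and adjusted p = 0.082 without them (SE 0.32). Amplified array 2, at 189, reached into the newly transcribed range, and without it the unpaired difference was 1.48 with adjusted p = 0.047. The paired call was lost without pair 3 (adjusted p = 0.098), without pair 4 (0.097) and with values as deposited (0.27), and held without pair 1 or 2. In starved cells Myc averaged 7.04 ± 0.37 in newly transcribed (n = 4) and 5.63 ± 0.75 in amplified RNA (n = 3), a difference of 1.41 ± 0.38 with adjusted p = 0.10, and the groups did not overlap. Every newly transcribed array was higher, as for 7.7% of all probe sets.

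No other member passed the threshold in these comparisons with all arrays. In treated cells Max had 1.13 ± 0.39 with pairs (adjusted p = 0.099), Mxi1 -0.54 ± 0.19 (0.10), Ncl 0.57 ± 0.43 (0.44), Odc1 0.34 ± 0.23 (0.38) and Mxd4 0.06 ± 0.25 (0.92). Without pair 1, where limma called 3155 probe sets, Max (1.60, adjusted p = 0.012), Mxi1 (-0.70, adjusted p = 0.041) and Odc1 (0.59, adjusted p = 0.049) passed the threshold with pairs, while Ncl had 0.03 and Mxd4 -0.18. Without pair 4 Ncl had 0.96 and Odc1 0.16. Mxi1 lay lower in newly transcribed RNA on every array, at 30.6 to 49.2 against 53.0 to 97.3 in amplified RNA, as did 6.54% of all probe sets. In starved cells the differences without pairs ran from -0.08 for Odc1 to 0.80 for Max, and none of these 5 genes passed the threshold in any alternative. Their values depended on the setting, from -0.44 to 1.07 for Odc1, 0.22 to 1.80 for Max, -0.77 to 1.05 for Mxd4, -0.26 to 0.65 for Mxi1 and 0.27 to 1.64 for Ncl. With pairs limma called 1 of 6 members in treated cells, against 11.1% of all probe sets called higher, and without pairs 0 of 6, against 4.05% in treated and 3.17% in starved cells, so a call here does not set the members apart from the array.

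**Figure D4:**
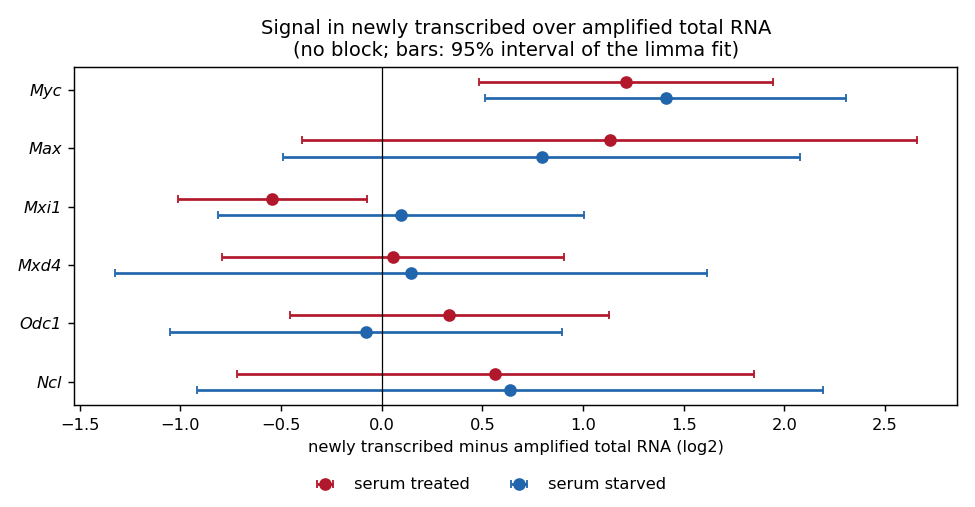
Newly transcribed minus amplified total RNA signal (log2) of the 6 genes in serum treated (red) and serum starved cells (blue), from limma without pairs, with unadjusted 95% intervals. Myc lies at 1.21 and 1.41, and the other 5 genes between -0.54 and 1.13.

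Ranked by mean over the 6 groups, Myc was highest in newly transcribed RNA with 10% serum (8.09 ± 0.36) and lowest in amplified RNA with 1% serum (5.63 ± 0.75). Newly transcribed RNA with 1% serum (7.04), total RNA with 10% serum (6.91) and amplified RNA with 10% serum (6.88) stood together within their spread, and so did the bottom pair, total (5.96) and amplified RNA with 1% serum. Mxd4 had its highest levels in total RNA, at 9.17 ± 0.21 with 10% serum and 9.50 ± 0.12 with 1% serum. Its newly transcribed and amplified groups stood between 7.37 and 7.59 and did not differ beyond their spread. Odc1 had its lowest levels in total RNA, at 7.55 ± 0.24 with 10% and 7.14 ± 0.37 with 1% serum, against 8.36 to 9.10 in the other groups. Max was highest in newly transcribed RNA with 1% serum (9.79 ± 0.23), and Mxi1 and Ncl had no neighbours in their order that differed beyond their spread. These levels were set on a common scale by quantile normalization, and the kinds of RNA differ in the 3' to 5' signal given above, whose part in them was not tested.

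Over the 23 arrays, Myc and Odc1 correlated at Pearson r = 0.43, Max and Odc1 at 0.60, and Mxd4 and Odc1 at -0.67, as a description of arrays that share kind of RNA, serum and replicate number. Among 4694 genes with a mean signal at or above the median, those most like Myc were Tbc1d1, a Rab GTPase-activating protein (r = 0.91), Dusp1, a MAP kinase phosphatase (0.88), Smad7, an inhibitory SMAD (0.88), the chemokine Ccl2 (0.86) and Slc66a2 (0.86). Max was followed most closely by Rad23b (0.94), Phldb2 (0.93) and Actr3 (0.93), and Mxd4 by the nuclear factor I genes Nfix (0.95) and Nfib (0.88) and the matrix metalloproteinase Mmp14 (0.88). For Odc1 they were Zdhhc5 (0.91), Rgs16 (0.90) and Sptlc2 (0.90), for Ncl Txnl4a (0.89), Dlst (0.89) and Brap (0.86), and for Mxi1 Drg1 (0.70), Omd (0.69) and St13 (0.68). Rgs16, a regulator of G protein signalling, rose by 2.03 with serum in newly transcribed RNA, and Smad7 (0.75) and Slc66a2 (0.90) also passed the threshold there with pairs.

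Other genes of the MAX network gave no call, and of the MYC cofactors and modifiers Pim1 was called in total RNA. Of 13 other genes of the MAX network 9 were measured, and limma called 0 with pairs in newly transcribed and in total RNA. The median change was -0.01 in newly transcribed RNA, equal to that over all genes, and 3 of 9 were positive. Mnt, the broadly expressed MAX-binding repressor, was lowest at -0.83 ± 0.19 (adjusted p = 0.082), followed by Mxd3 at -0.27, while Usf1, which binds the same E-box without MAX, was highest at 0.54 ± 0.15 (0.13 on its other probe set). The paralogue Mycn had 0.14 ± 0.28 (-0.10 on its other probe set). Mean intensities in newly transcribed RNA were 2.45 with 10% and 2.52 with 1% serum for Mxd1, 8.98 and 7.57 for Mycs, and 16.6 and 25.1 for Mxd3, levels near or below the pseudocount, where changes are compressed. Of 22 MYC cofactors, modifiers and repressor subunits 16 were measured, with 0 called in newly transcribed RNA and 1 in total RNA. There the kinase Pim1 rose by 1.04 ± 0.11 (limma with pairs, adjusted p = 0.031), and by 1.04 on its other probe set (adjusted p = 0.022). In newly transcribed RNA Pim1 had 0.72 ± 0.17 (0.19 on the other probe set), Zbtb17, the MYC-binding factor MIZ1, had 0.78 ± 0.27, the mitotic kinase Aurka -0.76 ± 0.13 (adjusted p = 0.052) and the deacetylase Hdac2 -0.60 ± 0.27. The fit without pairs called 0 of these 16 genes in either kind of RNA. The list median was -0.00 in newly transcribed RNA and -0.06 in total RNA, against -0.01 and -0.02 over all genes.

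The counts for classical growth targets of MYC, taken with pairs, stand beside 0.91% of all probe sets called higher in newly transcribed RNA and 0.459% in total RNA. Of 35 ribosome biogenesis and translation genes 31 were measured and 0 were called by their brightest probe set in either kind of RNA. In newly transcribed RNA 21 of 31 were positive with a median of 0.20, against -0.01 over all genes, of which 48.1% were positive. In total RNA 22 were positive with a median of 0.07, against -0.02 over all genes, of which 43.9% were positive. The nucleolar Nop16 was highest, at 0.74 ± 0.16 (adjusted p = 0.074), and its other, dimmer probe set was called at 0.69 with adjusted p = 0.046. Polr1b, an RNA polymerase I subunit, had 0.62 ± 0.17, while nucleophosmin (Npm1) had -0.49 ± 0.17 and Rrs1 -0.14 ± 0.22.

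Of 40 metabolic and growth targets 33 were measured, and the same 3 rose with pairs in newly transcribed and in total RNA. The glucose transporter Slc2a1 rose by 1.28 ± 0.16 and 1.33 ± 0.12 and the hexokinase Hk2 by 1.14 ± 0.16 and 1.16 ± 0.12, but Hk2's other probe set had -0.09 and -0.14. Fosl1, an AP-1 subunit also counted among immediate early genes, rose by 1.78 ± 0.20 and 1.81 ± 0.12, and its rise in total RNA was also called without pairs (adjusted p = 0.025). The fit without pairs called 0 of the 33 in newly transcribed RNA and 1, Fosl1, in total RNA. The list medians were 0.10 and 0.06, and 23 of 33 were positive in both, against 48.1% and 43.9% of all genes. Enzymes next to Odc1 in polyamine metabolism (9 of 20 measured) gave 0 calls, with spermidine synthase (Srm) at 0.61 ± 0.19, Dhps at 0.41 ± 0.19, the antizyme Oaz2 at -0.41 ± 0.14 and Arg2 at -0.32 ± 0.23 (0.28 on its other probe set) in newly transcribed RNA. Nucleolar and RNA-binding genes of Ncl's kind (16 of 18 measured, Ncl included) gave 0 calls too, with medians of -0.07 (newly transcribed RNA) and 0.07 (total RNA). Fbl had 0.37 and Igf2bp1 0.33, and Npm1 -0.49 and Hnrnpk -0.41 in newly transcribed RNA.

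Genes reported as repressed by MYC went both ways. All 16 listed were measured, and in newly transcribed RNA 2 fell with pairs, the cyclin of resting cells Ccng2 by 1.52 ± 0.18 (adjusted p = 0.026) and the growth arrest gene Gas1 by 1.46 ± 0.23 (adjusted p = 0.042). In total RNA Ccng2 fell by 1.21 ± 0.10, Gas1 had -0.78 ± 0.15 (adjusted p = 0.15), and Dusp1, which serum is known to induce, rose by 1.74 ± 0.22 (adjusted p = 0.048). Over all 12422 probe sets, limma with pairs called 0.829% lower in newly transcribed RNA. In total RNA it called 57 higher and 3 lower. The fit without pairs called 0 of these 16 genes in either kind of RNA. The list median was -0.11 in newly transcribed RNA and 0.03 in total RNA. As a gauge of the serum response itself, 13 of 15 immediate early genes were measured, all positive in both kinds of RNA by their brightest probe set, with medians of 1.28 and 1.42 and 6 called higher in each with pairs. Myc, at 1.05 and 0.95, lay below those medians. Without pairs limma called 0 of the 13 immediate early genes in newly transcribed RNA and 5 in total RNA. Other probe sets of Fos and Egr1 had -0.24 and -0.12 in newly transcribed RNA. Those of Junb had 1.39, Klf10 0.93 (limma with pairs, adjusted p = 0.048), Atf3 0.53 and 0.02, and Klf4 0.01. In amplified total RNA limma called 0 genes of every list, with the immediate early median at 1.25.

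**Figure D5:**
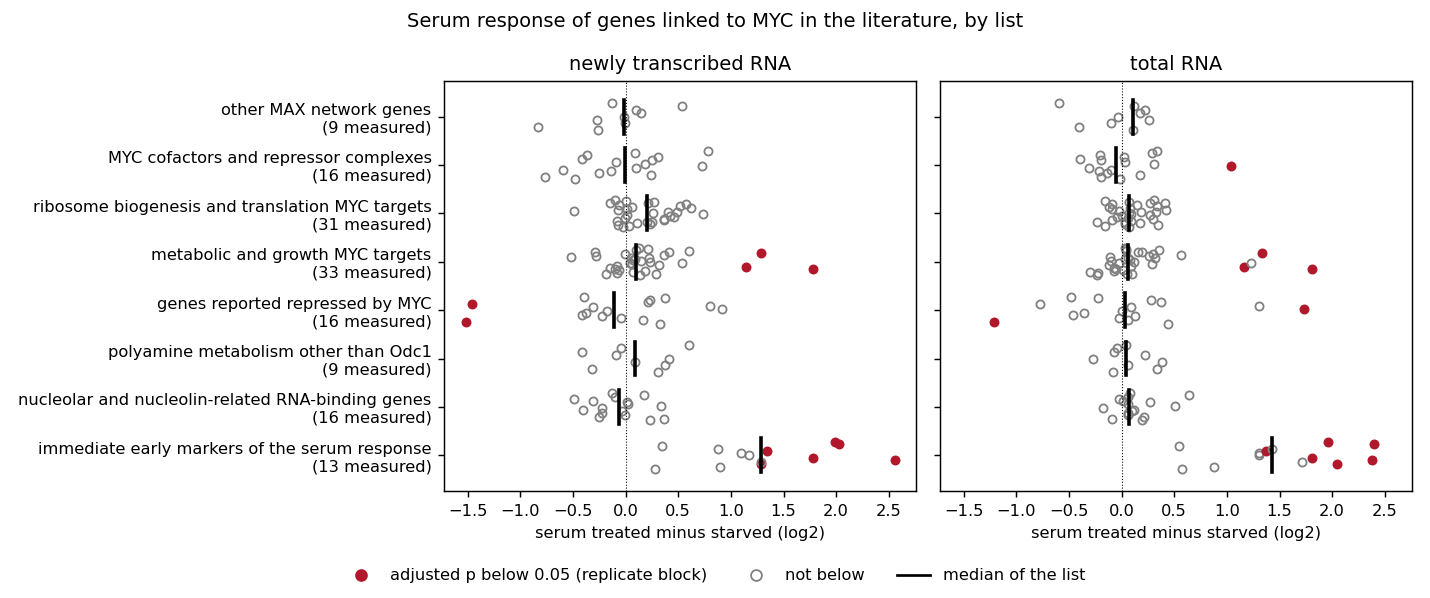
Serum treated minus serum starved signal (log2, limma with pairs) of each measured gene of 8 lists, in newly transcribed (left) and total RNA (right); filled red points have an adjusted p below 0.05 and black bars are list medians. The medians of the 7 MYC-linked lists lie between -0.11 and 0.20, and those of the immediate early genes at 1.28 and 1.42.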

How the data were processed

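RNA was reverse transcribed, linearly amplified, labelled with biotin by T7 transcription and hybridised to 23 Affymetrix mouse arrays, per the labels' protocols. These protocols give linear amplification for all samples, and only the titles set total RNA apart from amplified total RNA. The 3' to 5' signals of these kinds differed, as given above. The authors deposited 1 linear signal intensity per probe set and array for 12488 probe sets, with 42 values at 0; the software that summarised probes and any scaling are not given in the sources used here. Arrays with identical values numbered 0. Samples were grouped by title.

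Array medians spanned 1.97 on the log2 scale, above the limit of 0.5 set for normalizing, so arrays were quantile normalized and log2(intensity + 16) was taken. Of the probe sets 66 controls were left out, and 12422 were tested two-sided with limma 3.58.1 (lmFit, then eBayes; R 4.3.3) and Benjamini-Hochberg adjustment over all of them, called at an adjusted p below 0.05. Each of the 7 comparisons used only arrays of the kinds compared, and its main fit had no block. The fit with pairs, which takes the replicate number as a block, was an alternative. The rises of Myc and Odc1 called in Results rest on that alternative, as the main fit called neither. The steps were tested on simulated data. The number of arrays limits the precision.

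Genes were named from the platform's annotation (10833 probe sets with 1 symbol, 8251 genes; 396 with several; 1193 not listed), and the brightest probe set stood for a gene with several. Members and the 8 gene lists were chosen with earlier results of these data known. Named from each list were genes called in a serum response, otherwise the 2 highest and 2 lowest in newly transcribed RNA, and by likeness 5 genes for Myc and 3 for each other member; the other genes named, such as Mycn, Gas1 in total RNA and Nop16's other probe set, were chosen after their values were seen.

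Replicate numbers were taken as pairs where the deviations of all same-numbered arrays from their group means correlated above 0.1 over all probe sets. This held for the serum groups of newly transcribed (0.70 to 0.80) and total RNA (0.23 to 0.70) and for newly transcribed against amplified treated arrays (0.56 to 0.73). It did not for amplified serum groups (0.69, 0.76 and -0.47) or newly transcribed against amplified starved arrays (0.37, 0.68 and -0.39). The pairing comes from the data; what a number shares is not in the titles. Alternatives were values as deposited, scaling to 1 median, pseudocounts of 1 and 64, the probe sets above the median signal, all arrays in 1 fit, blocks and leaving out arrays.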

Additional observations from a re-analysis of the deposited data

Results flagged for a closer look

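In 30 groups of 4 arrays (5 groups for each of 6 genes), the gap of the highest or lowest array to its neighbour was set against the group's range, and 3 exceeded the critical share of 0.829; chance flags about 1 in 20 groups. Ncl on newly transcribed array 4 was the lowest of its group with 10% serum, with a gap of 0.948 of the range and an intensity of 458. It was also the lowest with 1% serum, at 0.900 of the range and 347. Max on newly transcribed array 4 with 1% serum was the lowest of its group, at 0.829 of the range (0.8293 before rounding) and 681.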

How the results depend on the processing

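Over 966 member values under alternatives, 858 kept the sign of the fit without a block, 108 had the opposite sign, and 0 of those passed the threshold. Myc in newly transcribed RNA ranged from 0.56 to 1.19 and in total RNA from 0.60 to 1.18; in both it passed with the replicate block and with that block and arrays scaled to 1 median, and in no other alternative. Odc1 in newly transcribed RNA ranged from 0.30 to 0.86 and passed with the replicate block and with the array cluster as a block. For Myc in newly transcribed against amplified RNA, 8 of 23 alternatives passed in treated and 2 of 19 in starved cells (all arrays in 1 fit and the array cluster as a block).

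Counts of calls depended on the settings. In newly transcribed RNA the count of 0 became 216 with the replicate block (113 higher and 103 lower), 293 with that block and 1 median (116 higher and 177 lower), 45 with the array cluster as a block, 30 with all arrays in 1 fit, 3 with a pseudocount of 64, and 0 to 1 without 1 array, or 0 to 25 without 1 pair, and it was 0 with the block and either values as deposited or a pseudocount of 1. In total RNA the count of 15 became 60 with the block, 68 with the block and 1 median, 25 in the probe sets above the median signal, 7 with a pseudocount of 1, 2 with values as deposited, 0 with the block and either of these last settings, 1 to 19 without 1 array and 0 to 10 without 1 pair. In amplified RNA the count of 0 became 3 with all arrays in 1 fit. For newly transcribed against amplified treated RNA the count of 503 became 2626 with the block, 2547 with the block and 1 median, 1638 with the block and a pseudocount of 1, 2257 with the array cluster, 1413 with all arrays, 231 with a pseudocount of 1, 0 with values as deposited with or without the block, 147 to 619 without 1 array and 818 to 3155 without 1 pair. In starved cells the count of 394 became 1479 with the array cluster, 1174 with all arrays, 251 with 1 median, 0 with values as deposited, a pseudocount of 1 or the block, 0 to 237 without 1 array and 0 without any 1 number under the block. Both differences of responses stayed at 0 in every alternative.

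The replicate block, where numbers pair, changed the calls of Myc and Odc1 given above and no other member's serum call; in amplified RNA, where they do not, Myc had 1.43 with the block (adjusted p = 0.87). The array cluster as a block and the block with other scalings were chosen after seeing the data. The causes were not tested. With 3 or 4 arrays a group, precision is limited by their number, and changes of dim signals are compressed by the pseudocount. That holds for Mxi1 and also for Myc in starved cells, at 30.9 to 64.3 in total and 12.01 to 61.5 in amplified RNA.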
